A study of Mus musculus with 6 samples.

Results

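The EGF receptor family consists of receptor tyrosine kinases encoded by Egfr, Erbb2, Erbb3 and Erbb4, and its ligands are made as membrane-bound precursors that proteases release from the cell surface. The genes described here were these 4 receptor genes and 6 ligand genes (Areg, Ereg, Hbegf, Tgfa, Btc and Nrg1), listed by name. These genes and the lists below were chosen with earlier results of these data known. Of these 10 genes, 9 had a row annotated to that gene alone, out of 19938 genes with such a row, and Areg was not analysed here. Each of the 9 genes had 1 such row. A further row carries the names of both Erbb2 and Sympk and was not used.

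Ligand binding brings receptors together in pairs, which phosphorylate each other and start the Ras-ERK and PI3-kinase cascades. EGFR binds EGF, TGFA, amphiregulin, epiregulin, betacellulin and HB-EGF, whereas neuregulins bind ERBB3 and ERBB4. ERBB2 has no known ligand of its own and acts as a partner, and ERBB3 has very weak kinase activity and signals through its partner. In the intestine this system is known for growth, survival and repair of the epithelium, and neuregulin acting through ERBB3 is known for the development of enteric glia.

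The arrays measured RNA of intestine from E14.5 mouse embryos, a stage at which villi have not yet formed, in a strain background given as mixed and partly C57Bl/6. Klf5-deleted embryos (genotype Klf5D/D, 3 arrays) were compared with control embryos (genotype Klf5wt/wtShhEGFP/Cre+, 3 arrays), which are wild-type for Klf5 and carry the ShhEGFP/Cre allele, a Cre recombinase expressed from the Shh gene, which is active in gut epithelium. Each array was hybridised with RNA pooled from 2 intestines, from a segment about 1.5 cm anterior to the cecum, so that epithelium, mesenchyme, muscle, nerve and vessels were measured together. Klf5, the gene of the deleted Krüppel-like factor, read 10.24, 10.49 and 10.34 in Klf5-deleted arrays, against 11.55, 11.74 and 11.77 in control arrays, without overlap (limma adjusted p = 9.62e-05). All values below are RMA log2 signals, on which a difference of 1 is a doubling, and the deposited values ran from 3.51 to 14.3.

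Before the results, the pools differed in sex. Xist, which is expressed from the inactive X chromosome of female cells, read 5.89 to 6.47 in Klf5-deleted arrays and 11.93 to 12.61 in control arrays. From the Y-linked genes Eif2s3y, Kdm5d and Uty, the male share of the pools was estimated at 95.1% to 103% in Klf5-deleted arrays and at 0%, 46.6% and 41.5% in control replicates 1 to 3. Sex and genotype can therefore be told apart only through the differences among the control pools. Correlations across all rows, given as a description, were 0.989 to 0.993 for the 9 pairs of a Klf5-deleted and a control array, and 0.994 to 0.997 for the 6 pairs of arrays of the same group.

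The Klf5-deleted intestine had less RNA of 1 receptor gene, Erbb3, and of 4 EGF-type ligand genes, Btc, Tgfa, Hbegf and Ereg, than the control intestine. The falls were modest, to between 65.6% and 86.5% of the control signal. Signals of Egfr, Erbb2, Erbb4 and the neuregulin gene Nrg1 did not pass the test. Thus 5 of the 9 measured genes fell and 0 rose at an adjusted p below 0.05 (limma, Benjamini-Hochberg over all 19938 genes), against 17.5% of all genes called in either direction, 8.95% higher and 8.58% lower. At an unadjusted p under 0.05, 1 of the 9, Egfr, was higher. The median log2 fold change was −0.21 over the 9 genes and 0.02 over all genes tested. Without control replicate 2, 3 of the 9 genes fell (Erbb3, Hbegf and Btc). When the fit also held each pool's estimated male share, 0 of the 9 passed, and the 5 genes kept their sign. In tissue of mixed cells, fewer cells of a type and less RNA per cell cannot be told apart.

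**Figure D1:**
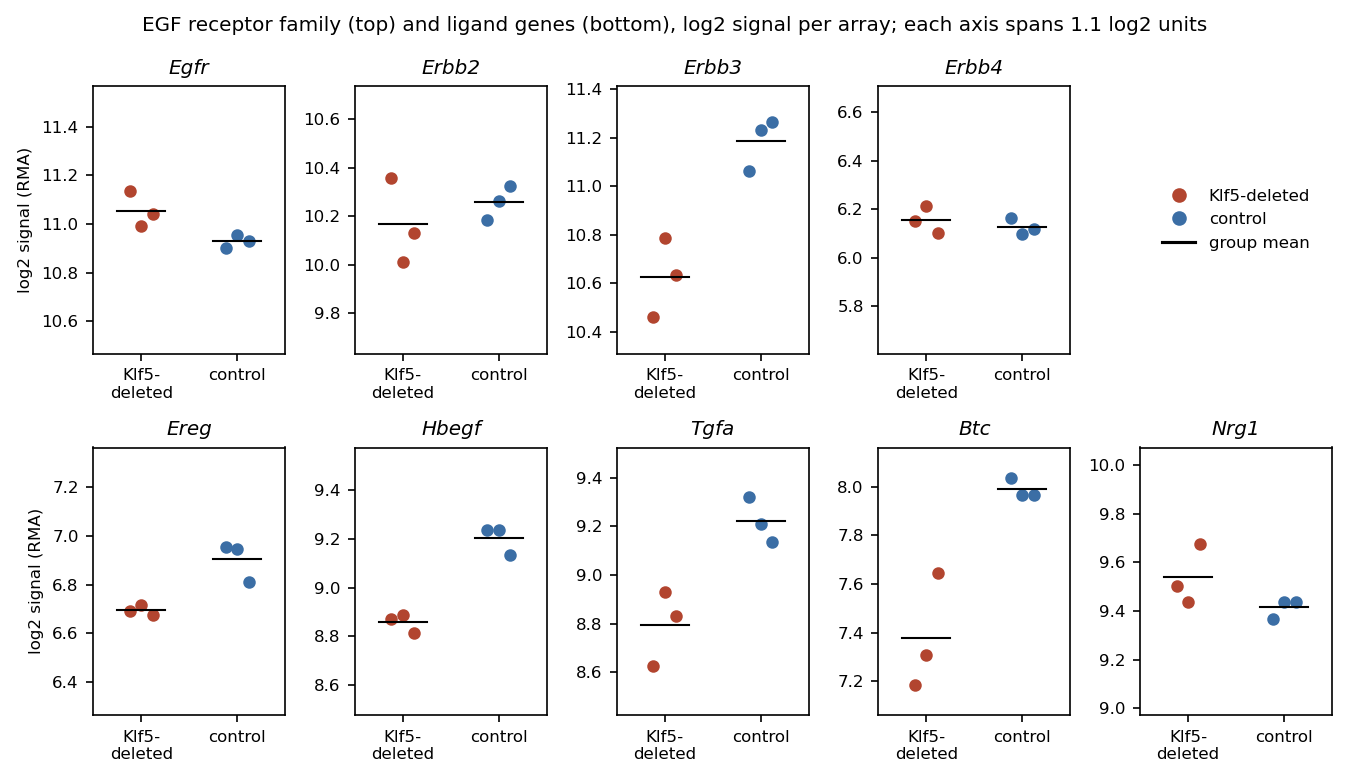
Log2 signal (y axis, RMA, each panel spanning 1.1 units) of the 9 measured genes in the 3 Klf5-deleted arrays (left in each panel) and the 3 control arrays (right), with group means as lines. Erbb3, Ereg, Hbegf, Tgfa and Btc lie lower in every Klf5-deleted array than in any control array, Egfr lies slightly higher, and the groups of Erbb2, Erbb4 and Nrg1 overlap.

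Among the receptors, Egfr encodes the founding member of the family. It read 11.13, 10.99 and 11.04 in Klf5-deleted arrays, against 10.90, 10.96 and 10.93 in control arrays. The Klf5-deleted arrays were all above the controls, by a narrow margin. The log2 difference of 0.13 (95% interval 0.01 to 0.25, SE 0.05, n = 3 per group) did not pass adjustment (adjusted p = 0.147 with limma).

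Erbb2 encodes the ligandless partner receptor. Its signals were 10.36, 10.01 and 10.13 in Klf5-deleted arrays, against 10.19, 10.26 and 10.32 in control arrays. Klf5-deleted replicate 1 was the highest of all 6 arrays and Klf5-deleted replicate 2 the lowest, so the groups overlapped. The log2 difference was −0.09 (95% interval −0.30 to 0.12, SE 0.09, limma adjusted p = 0.581).

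Erbb3, the neuregulin receptor gene, read 10.46, 10.79 and 10.63 in Klf5-deleted arrays, against 11.06, 11.23 and 11.26 in control arrays. The groups did not overlap, and Klf5-deleted replicate 1 was the lowest. Erbb3 fell by 0.56 in log2 units (SE 0.09, limma adjusted p = 0.00649), to 67.9% of the control level. The call was kept on leaving out each array in turn, with changes of −0.64 to −0.47.

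Erbb4 encodes the other neuregulin receptor, which also binds betacellulin and HB-EGF. It read 6.15, 6.21 and 6.10 in Klf5-deleted arrays, against 6.16, 6.10 and 6.12 in control arrays. The groups overlapped, and the log2 difference of 0.03 had a 95% interval of −0.08 to 0.14 (limma adjusted p = 0.764). Its row was among the lowest 25% of genes by mean signal, where an array understates changes.

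Differences between receptors taken within an array do not depend on a shift common to the whole array. All 6 pairs of receptor genes were compared. Egfr minus Erbb3 stood at 0.93, 0.46 and 0.66 in Klf5-deleted arrays, against 0.09, −0.02 and −0.08 in control arrays, relative to the control mean. The shift of 0.68 between groups ran the same way in all 3 Klf5-deleted arrays. Erbb2 minus Erbb3 was shifted by 0.47 and Erbb3 minus Erbb4 by −0.59, also without overlap. These 3 pairs all carry the fall of Erbb3 given above and are not separate results. Erbb2 minus Erbb3 moved to 0.29 without Klf5-deleted replicate 1. Egfr minus Erbb2 was shifted by 0.22, again without overlap. For these 4 pairs p was 0.1 each in an exact permutation test (two-sided), the smallest value that 3 arrays against 3 allow. Egfr minus Erbb4 (0.10, p = 0.3) and Erbb2 minus Erbb4 (−0.12, p = 0.7) overlapped between groups in the same exact permutation test. Without Klf5-deleted replicate 1 these shifts were 0.06 and −0.22, and without Klf5-deleted replicate 2 they were 0.16 and −0.01.

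**Figure D2:**
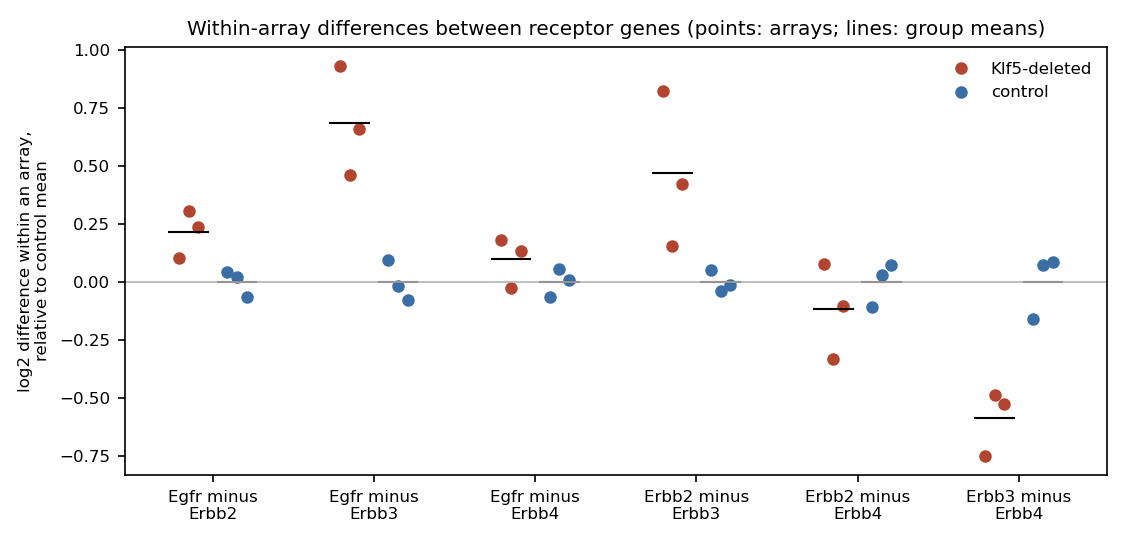
Difference in log2 signal between 2 receptor genes within an array, relative to the mean of the control arrays (y axis), for the 6 pairs, with Klf5-deleted arrays left and control arrays right of each tick and lines at group means. The 3 pairs that hold Erbb3, and so share its fall, show the widest separation, from 0.47 to 0.68 in size.

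Among the ligands, Btc encodes betacellulin, which binds EGFR and ERBB4. It read 7.19, 7.31 and 7.65 in Klf5-deleted arrays, against 8.04, 7.96 and 7.97 in control arrays. The Klf5-deleted arrays were all lower but spread more (SD 0.24) than the controls (SD 0.04). Btc fell by 0.61 in log2 units (SE 0.11, limma adjusted p = 0.0094), to 65.6% of the control level, and kept its call on leaving out each array in turn (−0.74 to −0.51).

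Tgfa encodes transforming growth factor alpha, an EGFR ligand of many epithelia. It read 8.63, 8.93 and 8.83 in Klf5-deleted arrays, against 9.32, 9.21 and 9.14 in control arrays, without overlap. Tgfa fell by 0.43 (SE 0.09, limma adjusted p = 0.0148), to 74.4% of the control level. Leaving out control replicate 2 ended the call (−0.43, adjusted p = 0.0511), and leaving out any other array did not.

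Hbegf encodes heparin-binding EGF-like growth factor, which binds EGFR and ERBB4. It read 8.87, 8.89 and 8.82 in Klf5-deleted arrays, against 9.24, 9.24 and 9.13 in control arrays. Replicates lay close together in both groups (SD 0.04 in Klf5-deleted arrays and 0.06 in control arrays), and the groups did not overlap. Hbegf fell by 0.34 (SE 0.05, limma adjusted p = 0.0037), to 78.8% of the control level, and kept its call without any 1 of the 6 arrays (−0.38 to −0.32).

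Ereg, which encodes epiregulin, read 6.69, 6.72 and 6.67 in Klf5-deleted arrays, against 6.95, 6.95 and 6.81 in control arrays. The groups did not overlap, but the margin was narrow and the row was among the lowest 25% of genes by mean signal. Ereg fell by 0.21 (SE 0.05, limma adjusted p = 0.033), to 86.5% of the control level. The call was kept without control replicate 3 and lost without any other array (−0.22 to −0.18, adjusted p = 0.0663 to 0.115).

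Nrg1 encodes neuregulin 1, the ligand of ERBB3 and ERBB4. It read 9.50, 9.44 and 9.68 in Klf5-deleted arrays, against 9.37, 9.44 and 9.44 in control arrays. The groups overlapped, with Klf5-deleted replicate 3 the highest array. The log2 difference was 0.12 (95% interval −0.03 to 0.28, SE 0.07, limma adjusted p = 0.277).

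In all, the arrays of both groups did not overlap for 6 of the 9 genes (5 lower and 1 higher in Klf5-deleted arrays), against 36.0% of all genes (15.9% lower and 20.1% higher). In RefSeq of GRCm38.p6, Epgn, Ereg, Areg and Btc follow each other on chromosome 5. Epgn, which encodes the EGFR ligand epigen, was at 0.04 (SE 0.07, limma adjusted p = 0.776) and is named after its value was seen.

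Promoters are shown for Tgfa and Btc, the 2 ligand genes with the largest falls that have a promoter sequence in the RefSeq table of build GRCm38.p6. The window runs from 250 bases before to 50 after the gene's start, and capitals mark CCNCNCCC, a motif of the Krüppel-like factor class, or its reverse complement GGGNGNGG, with overlapping matches merged. The sequence of Tgfa is from the plus strand at chr6:86194972-86195271, and that of Btc from the minus strand at chr5:91402945-91403244.
Tgfa: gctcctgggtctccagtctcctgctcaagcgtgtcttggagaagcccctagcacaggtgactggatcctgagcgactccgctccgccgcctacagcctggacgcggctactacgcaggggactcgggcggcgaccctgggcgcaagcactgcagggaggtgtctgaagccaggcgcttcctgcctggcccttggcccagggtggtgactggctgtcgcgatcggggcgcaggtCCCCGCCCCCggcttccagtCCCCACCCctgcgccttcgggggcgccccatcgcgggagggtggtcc
Btc: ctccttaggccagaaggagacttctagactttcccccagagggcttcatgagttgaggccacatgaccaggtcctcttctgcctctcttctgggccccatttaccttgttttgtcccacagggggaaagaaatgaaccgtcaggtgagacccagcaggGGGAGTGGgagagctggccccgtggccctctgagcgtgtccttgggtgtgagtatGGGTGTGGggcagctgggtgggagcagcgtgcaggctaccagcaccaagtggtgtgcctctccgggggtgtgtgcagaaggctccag
Tgfa held 3 matches, of which 2 overlap, and Btc held 2. The promoters of Egfr, Erbb4 and Areg held 1 match each and that of Erbb2 held 2. Of all 32851 promoters of the same length, 49.5% held at least 1 match, so the 6 matched genes, called or not, all had a motif that is common. Erbb3, Hbegf, Ereg and Nrg1 had no promoter sequence to search. Tgfa and Btc were thus the only genes called lower that were examined. A match describes letters in the window and shows neither binding nor a cause.

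**Figure D3:**
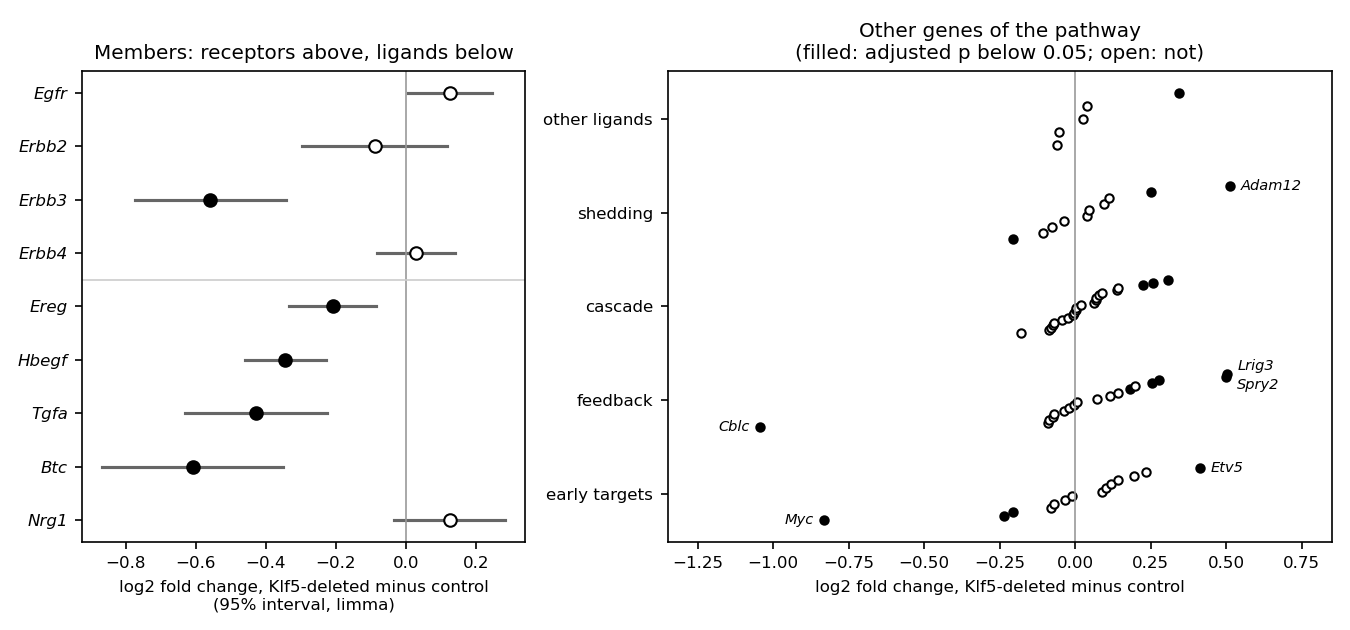
Log2 fold change, Klf5-deleted minus control (x axis), of the 9 measured genes with 95% intervals (left) and of 69 other genes of the pathway by role (right, 1 point per gene). Filled points passed an adjusted p below 0.05. Erbb3, Ereg, Hbegf, Tgfa and Btc lie left of 0, and the other genes of the pathway scatter on both sides, with Cblc at −1.04 and Myc at −0.83 farthest to the left.

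The rest of the pathway was followed through 69 measured genes of 74 listed. Over all genes, 8.95% were called higher and 8.58% lower, the shares to set beside each list below. Of the 69 genes, 12 rose and 5 fell (24.6%, against 17.5% of all genes), with a median log2 fold change of 0.03. The number that rose was 7 without control replicate 2 and 6 without control replicate 3. The number that fell was 3 without Klf5-deleted replicate 3, 3 without control replicate 2 and 2 without control replicate 3.

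Of the 5 other ligand genes (Egf, Epgn, Nrg2, Nrg3 and Nrg4), 1 rose and 0 fell, with a median of 0.03. Epgn and Nrg4 had low mean signals, 6.08 and 5.46 in Klf5-deleted arrays and 6.04 and 5.51 in control arrays. Changes of such rows are understated, which limits this median. Nrg2, a neuregulin gene, read 9.07, 9.22 and 9.04 in Klf5-deleted arrays, against 8.90, 8.68 and 8.72 in control arrays. It rose by 0.34 (SE 0.07, limma adjusted p = 0.019). Leaving out Klf5-deleted replicate 2 or control replicate 2 or 3 ended this call (0.29 to 0.32, adjusted p = 0.0507 to 0.0709).

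Of the 10 genes of ligand shedding, which encode surface proteases and their regulators, 2 rose and 1 fell, with a median of 0.04. Adam12, a metalloprotease gene, read 9.58, 9.16 and 9.40 in Klf5-deleted arrays, against 8.86, 8.92 and 8.82 in control arrays. It rose by 0.51 (SE 0.10, limma adjusted p = 0.0127), a call lost without control replicate 3 (0.49, adjusted p = 0.0522). Its relative Adam19 rose by 0.25 (SE 0.06, limma adjusted p = 0.0295), and that call was kept without Klf5-deleted replicate 2 or control replicate 1 and lost without any other array (0.20 to 0.27, adjusted p = 0.0579 to 0.0993). Rhbdf2, which encodes the ADAM17 partner iRhom2, fell by 0.21 (SE 0.05, limma adjusted p = 0.0242). The Rhbdf2 call was kept without replicate 2 of either group and lost without any other array (−0.21 to −0.18, adjusted p = 0.0668 to 0.0713). Adam17 itself, the main sheddase of EGFR ligands, was at 0.04 (SE 0.04), and Adam10, known for shedding of EGF and betacellulin, at 0.04 (SE 0.04). Both are named here after their values were seen.

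Of 22 measured genes of the cascade below the receptors, 3 rose and 0 fell, with a median of 0.01. Plcg1, a phospholipase gene whose product docks on active receptors, rose by 0.31 (SE 0.05, limma adjusted p = 0.00616) and kept its call without any 1 array. The docking protein genes Gab1 and Gab2 rose by 0.26 (SE 0.05, limma adjusted p = 0.015) and 0.22 (SE 0.05, limma adjusted p = 0.0239). Leaving out control replicate 2 ended the Gab1 call (0.26, adjusted p = 0.0533). The Gab2 call was kept without control replicate 1 and lost without any other array (0.19 to 0.23, adjusted p = 0.0585 to 0.0873). Without Klf5-deleted replicate 2, 1 gene of the list fell.

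Of 18 genes of feedback inhibitors and their relatives, 5 rose and 1 fell (against 8.95% and 8.58% of all genes), with a median of 0.04. Cblc, a member of the Cbl family of ubiquitin ligases found in epithelia, read 7.78, 7.95 and 8.01 in Klf5-deleted arrays, against 9.01, 8.94 and 8.92 in control arrays. It fell by 1.04 (SE 0.07, limma adjusted p = 9.86e-05), to 48.5% of the control level. The widely expressed relatives Cbl (−0.02, SE 0.04) and Cblb (0.12, SE 0.05) did not pass and are named after their values were seen. Lrig3, a relative of the receptor inhibitor gene Lrig1, read 11.54, 11.31 and 11.32 in Klf5-deleted arrays, against 10.87, 10.91 and 10.88 in control arrays.

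Lrig3 rose by 0.50 (SE 0.07, limma adjusted p = 0.00284) and Lrig2 by 0.25 (SE 0.04, limma adjusted p = 0.00583). Lrig1 was at 0.07 (SE 0.05) and is named after its value was seen. Spry2, an inhibitor of Ras-ERK signalling, rose by 0.50 (SE 0.05, limma adjusted p = 0.000858). Dusp6, an ERK phosphatase gene induced by ERK activity, rose by 0.28 (SE 0.06, limma adjusted p = 0.0158), a call lost without control replicate 3 (0.25, adjusted p = 0.0579). Without that array 3 genes of the list rose instead of 5. Cblc, Lrig3, Lrig2 and Spry2 kept their calls on leaving out each array in turn.

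Of 14 early response and target genes, 1 rose and 3 fell, with a median of 0.04. Etv5, an ETS factor gene downstream of receptor tyrosine kinases, read 9.65, 9.34 and 9.50 in Klf5-deleted arrays, against 9.11, 9.10 and 9.04 in control arrays. It rose by 0.41 (SE 0.08, limma adjusted p = 0.0111). Myc, also a Wnt target, fell by 0.83 (SE 0.05, limma adjusted p = 7.21e-05), and both calls were kept on leaving out each array in turn. Phlda1 fell by 0.24 (SE 0.05, limma adjusted p = 0.0182), a call lost without Klf5-deleted replicate 2 or control replicate 2 or 3 (−0.24 to −0.21, adjusted p = 0.0525 to 0.0717). Ier2 fell by 0.21 (SE 0.05, limma adjusted p = 0.0241), a call kept without replicate 1 of either group and lost without any other array (−0.21 to −0.18, adjusted p = 0.0712 to 0.081). Without Klf5-deleted replicate 2 or 3, 2 genes of the list rose, and without Klf5-deleted replicate 2 or control replicate 2 or 3, 1 fell. The immediate early genes Fos (−0.01, SE 0.14) and Egr1 (−0.08, SE 0.05) did not pass and are named after their values were seen.

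Epithelial markers were also lower in the Klf5-deleted arrays. Of 21 epithelial markers, 19 fell and 1 rose, with a median of −0.85 (8.58% of all genes were called lower), a larger change than that of any of the 5 genes that fell. Mean levels over this list were 9.94 to 10.17 in Klf5-deleted arrays and 10.94 to 10.99 in control arrays. The rise, that of Prom1, was lost without control replicate 2. The list mean, relative to controls, was −1.03, −0.84 and −0.80 in Klf5-deleted replicates 1 to 3. Erbb3, Tgfa and Btc were lowest in Klf5-deleted replicate 1, where the list mean was lowest. Hbegf (8.82) and Ereg (6.67) were lowest in Klf5-deleted replicate 3, where the list mean was highest of these 3 arrays. Hbegf and Ereg hardly differed among these 3 arrays (SD 0.04 and 0.02), and the order of the arrays is a description only. Epcam and Cdh1, defining genes of epithelium, read 10.77 to 11.33 in Klf5-deleted arrays and 11.72 to 11.97 in control arrays. Log2 fold changes over the list ran from −3.28 (Elf3) to 0.28 (Prom1). Cdh1, Elf3 and Prom1 are named after their values were seen. The part of these markers in the falls of Erbb3, Btc, Tgfa, Hbegf and Ereg was not tested.

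In lists of other cell types a smaller part of the markers was called than in the epithelial list, apart from the mesothelial list. For comparison with each count, 8.95% of all genes were called higher and 8.58% lower. Of 13 fibroblast and mesenchyme markers 3 rose, with mean levels of 11.25 to 11.27 in Klf5-deleted arrays and 11.14 to 11.18 in control arrays. Of 11 enteric neuron and glia markers 3 rose, with mean levels of 10.25 to 10.41 in Klf5-deleted arrays and 10.13 to 10.19 in control arrays. Their median was 0.14, with a range of −0.21 to 0.47.

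Of 8 mesothelial markers 6 rose and 2 fell (Krt19 by 1.52 and Msln by 0.52, named after their values were seen), with mean levels of 9.80 to 10.03 in Klf5-deleted arrays and 9.44 to 9.77 in control arrays. Krt19 is also in the epithelial list and is counted in both. The rises numbered 4 without Klf5-deleted replicate 1 or 2, 2 without control replicate 2 and 3 without control replicate 3. Of 10 smooth muscle markers 2 rose, with means of 11.74 to 11.87 in Klf5-deleted arrays and 11.74 to 11.82 in control arrays. Of 9 endothelial markers 0 passed with limma (2 were higher and 0 lower at an unadjusted p under 0.05), with means of 10.26 to 10.65 in Klf5-deleted arrays and 10.25 to 10.33 in control arrays. Of 8 leukocyte markers 1 fell, with means of 8.34 to 8.66 in Klf5-deleted arrays and 8.55 to 8.76 in control arrays. Of 4 red cell markers 2 rose, with means of 11.21 to 12.06 in Klf5-deleted arrays and 10.86 to 11.54 in control arrays. Leaving out 1 array in turn gave 1 to 2 smooth muscle rises, 0 to 2 smooth muscle falls, 0 to 1 endothelial rises, 0 to 2 leukocyte falls and 0 to 2 red cell rises. The part of any of these markers in the results was not tested.

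**Figure D4:**
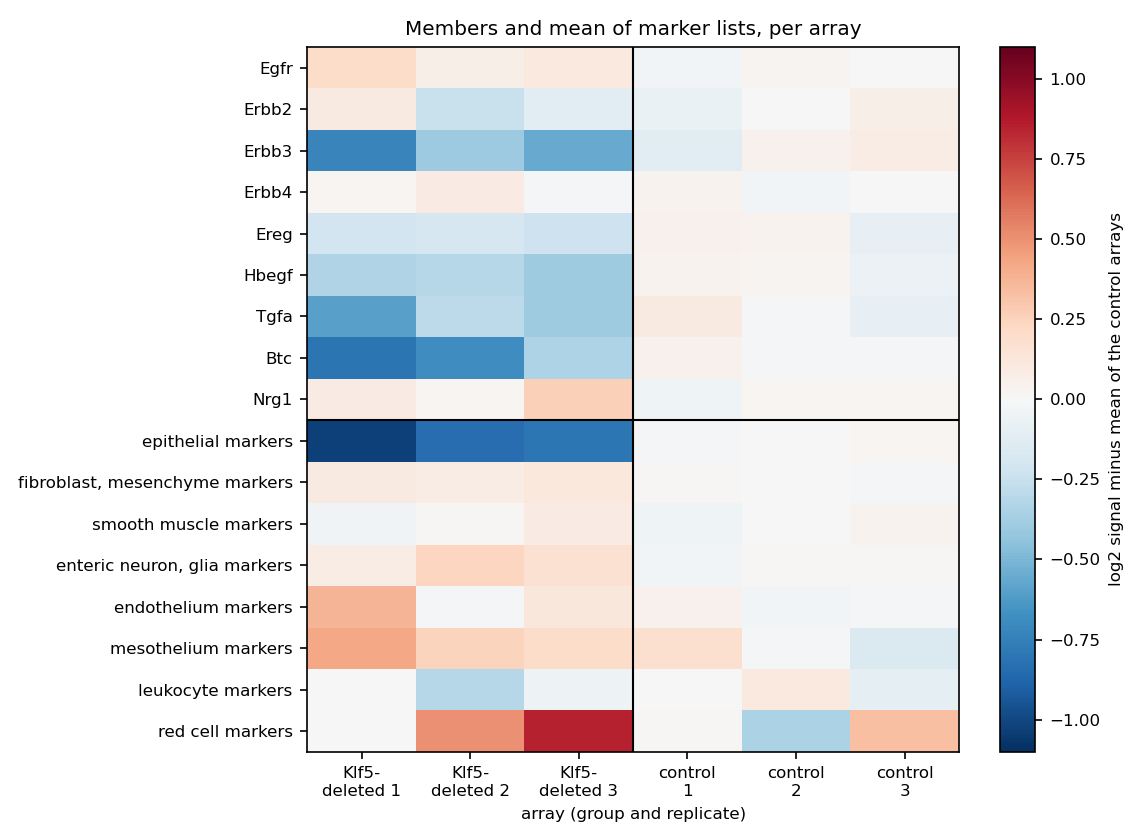
Log2 signal minus the mean of the control arrays (colour) for the 9 measured genes and for the mean of each marker list (rows) in each array (columns, Klf5-deleted left, control right). Epithelial markers are lowest in Klf5-deleted replicate 1 (−1.03), as are Erbb3, Tgfa and Btc. Hbegf and Ereg are lowest in Klf5-deleted replicate 3 (epithelial mean −0.80), but hardly differ among the Klf5-deleted arrays.

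The genes whose pattern over the 6 arrays was most like those of the 4 members with the largest falls were found by Euclidean distance of log2 values centred on the control mean. For Erbb3 these were Slc3a1, an amino acid transporter subunit gene (distance 0.11), Epcam, an epithelial adhesion gene (0.11), and Akr1c12 (0.11), a member of a family of close paralogs. For Btc they were the tight junction gene Cldn4 (0.15), the heparanase gene Hpse (0.16) and Atp13a3 (0.20). For Tgfa they were the fatty acid hydroxylase gene Fa2h (0.11), the protease gene Tmprss13 (0.11) and Ssx2ip (0.12). For Hbegf they were the galactose metabolism gene Galt (0.05), Coq4 (0.06) of coenzyme Q synthesis and the nucleoside transporter gene Slc29a2 (0.06). The distances describe these arrays only, and most of each pattern is the difference between the groups.

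With the estimated male share included as a covariate, Erbb3 was at −0.82 (SE 0.23, limma adjusted p = 0.212), Btc at −0.39 (SE 0.29, limma adjusted p = 0.564), Tgfa at −0.19 (SE 0.21, limma adjusted p = 0.719), Hbegf at −0.29 (SE 0.13, limma adjusted p = 0.376) and Ereg at −0.12 (SE 0.14, limma adjusted p = 0.726). All 5 kept their sign and none passed, in a fit in which 84 of the 19938 genes passed, against 3496 without the covariate. None of the pathway genes named above passed in that fit either.

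**Figure D5:**
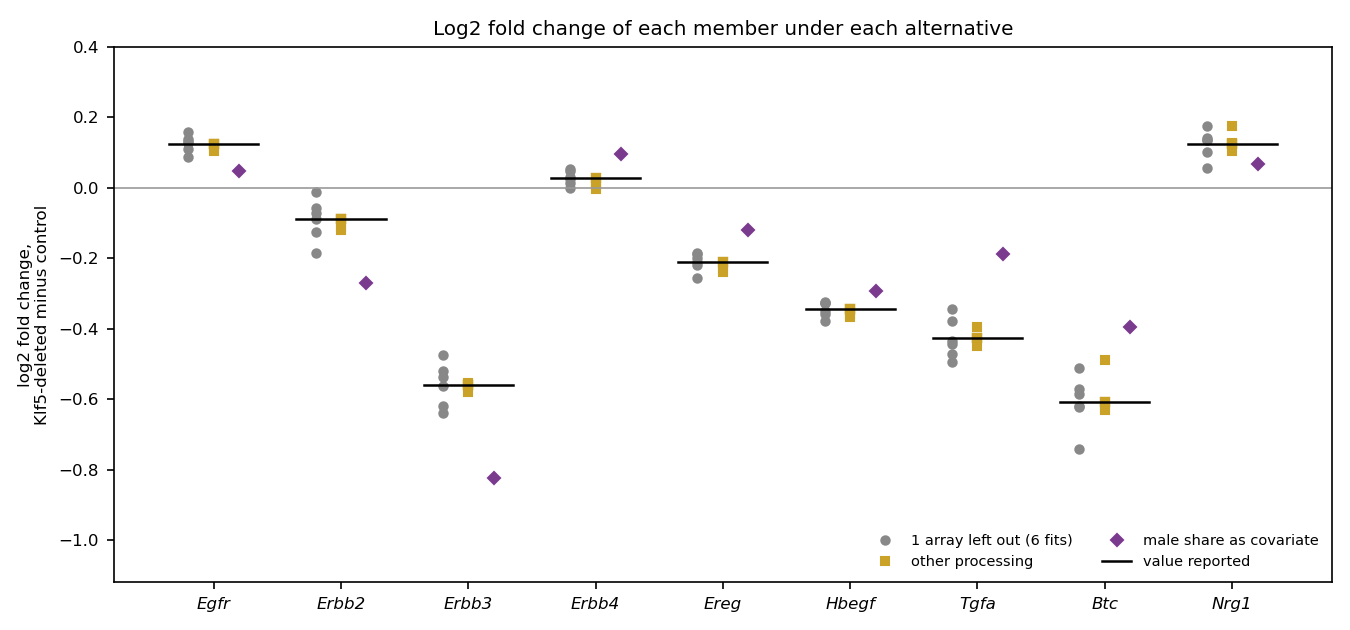
Log2 fold change, Klf5-deleted minus control (y axis), of each measured gene (x axis) as reported (line), with 1 array left out (circles), under other processing (squares) and with the male share as a covariate (diamonds). Erbb3, Ereg, Hbegf, Tgfa and Btc stay below 0 throughout, and Tgfa with the covariate lies at −0.19.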

How the data were processed

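RNA was hybridised to Affymetrix Mouse Gene arrays. The deposited values were log2 signals made by the authors. The submitters' processing notes name RMA and Affymetrix Expression Console, version 1.1. RMA as a method includes quantile normalization between arrays, which removes a shift common to most genes. Genome build and array annotation: not given in the sources used here. Groups came from sample titles, and litters are not given, so p reflects the spread among the pools. The estimated male share set control replicate 1 (0%) apart from control replicates 2 and 3 (46.6% and 41.5%), so their spread is not only technical. The rest of the spread may be technical. Arrays have no read depth, and 3 per group limit the precision.

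Of 35557 rows, 21789 had 1 gene symbol, updated through gene IDs to RefSeq (21698 matched), and the brightest row per gene was kept (19938 genes, no filter). The table held no columns of other samples. The comparison used limma 3.58.1 (R 4.3.3), adjusted by Benjamini-Hochberg with a threshold of 0.05, and receptor pairs by exact permutation (scipy 1.17.1). The limma step was tested on simulated data with 50 changed genes per size of change. It called 24% of genes changed by 0.25 in log2 units, 72% at 0.5 and 98% at 1. A small change can therefore go uncalled. Far fewer genes were changed in the simulated data than the 3496 called here, which alters the adjusted threshold. The rates thus do not measure the sensitivity of the comparison of these arrays. Named were the measured members, Klf5 and Xist, up to 4 pathway genes per list and direction by smallest p, and 3 genes nearest in pattern to each of 4 members. Other names are marked. The members and lists were chosen with earlier results of these data known. Alternatives left out each array or the dimmest 25% or 50% of genes, or changed the block, normalization, centring, variance model, weights, row choice or the male share as covariate. The male share was 0% at the lowest array and 100% at the Klf5-deleted mean of Eif2s3y, Kdm5d and Uty.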

Additional observations from a re-analysis of the deposited data

How the results depend on the processing

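Egfr, Erbb2 and Nrg1 kept their sign and stayed short of the threshold under all 16 alternatives (adjusted p from 0.0695 to 0.953). On leaving out an array, Egfr was at 0.09 to 0.16. Erbb2 was at −0.01 without Klf5-deleted replicate 2, −0.18 without Klf5-deleted replicate 1 and −0.06 when control replicate 3 was left out, against −0.09. Nrg1 was at 0.06 without Klf5-deleted replicate 3, against 0.12. Erbb4 was at −0.0004 without Klf5-deleted replicate 2 and −0.0025 with quantile normalization, against 0.03. Leaving out each array gave −0.0004 to 0.0547 for Erbb4, −0.26 to −0.18 for Ereg and −0.50 to −0.34 for Tgfa. Erbb3, Hbegf and Btc kept sign and call under all alternatives that could test them, except with the male share as a covariate (−0.82, −0.29 and −0.39), where Tgfa (−0.19) and Ereg (−0.12) did not pass either. Ereg also did not pass with the intensity trend and robust variance (−0.21, adjusted p = 0.0605) or with all rows tested (−0.21, adjusted p = 0.0784).

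The number of the 9 genes that fell was 3 to 5 on leaving out an array, 3 with the lowest 50% of genes left out, where Btc, Ereg and Erbb4 were not tested, and 0 with the covariate. Over all genes, 3496 passed, 2000 to 2757 on leaving out an array, 2089 with all rows tested and 84 with the covariate. Of the 69 pathway genes, 6 to 11 rose and 2 to 4 fell on leaving out an array, 0 rose and 0 fell with the covariate, and 3 fell both with the lowest 50% left out and with all rows tested. The samples share replicate numbers, but same-numbered arrays did not deviate together (correlations of −0.14, −0.27 and −0.03). With the replicate number as a block, 3 of the 9 genes fell (Ereg −0.21, adjusted p = 0.0818, and Tgfa −0.43, adjusted p = 0.0549, did not pass), 2008 genes passed, and 2 pathway genes fell. Causes of these changes were not tested.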
